A study of Saccharomyces cerevisiae with 8 samples.

Results

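Transcript levels of 47 budding yeast genes were followed: GCN4, which encodes the transcription activator of amino acid synthesis, and genes of the pathways it controls. The set was given by systematic name, by a rule on function that used no measured values, though earlier results of these data were known when it was chosen. It held 9 genes of arginine synthesis, 4 of histidine, 6 of lysine, 10 of the branched-chain amino acids (isoleucine, valine and leucine), 8 of the aromatic amino acids, 5 of threonine and 3 of serine synthesis, with ASN1 of asparagine synthesis and GCN4 itself. HIS3 and the other auxotrophic marker genes were left out. The 47 genes were 47 of the 7126 features measured, and all 47 were among the 6366 features tested.

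RNA sequencing libraries were made from 4 genotypes of Saccharomyces cerevisiae, namely a psh1 cac2 mutant (strain GH194), a psh1 mutant (GH72), a cac2 mutant (GH182) and WT (GH69), with 2 libraries each. Every culture, WT included, overproduced the centromeric histone H3 variant Cse4: cells were pre-grown in raffinose, diluted to an OD600 of 0.1, kept for 2 h at 30 °C, given galactose to 4% and grown for a further 10 h. Each genotype was represented by 1 strain grown in duplicate, so a property of that strain and a property of its genotype cannot be told apart, and no uninduced culture was analysed here. The ubiquitin ligase Psh1 directs Cse4 to the proteasome, and Cac2 belongs to CAF-1, a chaperone that deposits histones at replication.

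When yeast cells are short of an amino acid, uncharged tRNA activates the kinase Gcn2, bulk translation is lowered, and short reading frames in the leader of the GCN4 mRNA then allow more Gcn4 protein to be made. Gcn4 binds sites with the core TGACTC and activates genes of nearly all amino acid pathways at once, which is called general amino acid control. Because this control acts on translation, the GCN4 transcript level does not give the amount of Gcn4 protein. Several pathways also have a control of their own: the ArgR-Mcm1 complex represses arginine genes when arginine is plentiful, Leu3 acts on leucine and branched-chain genes with an intermediate of leucine synthesis as its signal, and Lys14 acts on lysine genes with an intermediate of lysine synthesis.

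The promoters of 5 genes are shown because each gene passed the test in the comparison with the most calls, psh1 cac2 against psh1, and each had the smallest p of its pathway there. The windows run from 300 to 51 bases before the start codon (250 bases) and were read from the RefSeq R64 genome, which is the sacCer3 build. They are written 5′ to 3′ on the strand of the gene, and capitals mark matches to TGACTC, searched on both strands. The window of ILV3 lies at chrX:466259-466508 (minus strand) and held 1 match, that of HIS4 at chrIII:68384-68633 (minus strand) held 3, and that of SER1 at chrXV:679057-679306 (plus strand) held 1. Windows of ARO4 at chrII:718045-718294 (minus strand) and of ARG3 at chrX:268499-268748 (plus strand) held none.
ILV3: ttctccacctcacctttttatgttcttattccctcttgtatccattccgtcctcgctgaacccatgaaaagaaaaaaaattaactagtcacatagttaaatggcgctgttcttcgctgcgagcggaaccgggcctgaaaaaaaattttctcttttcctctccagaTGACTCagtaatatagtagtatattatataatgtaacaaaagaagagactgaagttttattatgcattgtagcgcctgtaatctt
HIS4: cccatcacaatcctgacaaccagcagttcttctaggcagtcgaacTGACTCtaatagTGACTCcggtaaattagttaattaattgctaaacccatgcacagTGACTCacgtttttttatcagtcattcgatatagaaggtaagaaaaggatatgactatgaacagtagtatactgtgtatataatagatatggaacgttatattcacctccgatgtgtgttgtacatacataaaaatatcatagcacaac
SER1: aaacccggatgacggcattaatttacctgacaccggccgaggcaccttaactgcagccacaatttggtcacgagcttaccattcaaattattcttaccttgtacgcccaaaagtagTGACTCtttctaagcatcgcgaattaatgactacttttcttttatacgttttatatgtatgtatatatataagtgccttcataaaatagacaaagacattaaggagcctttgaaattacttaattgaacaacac
ARO4: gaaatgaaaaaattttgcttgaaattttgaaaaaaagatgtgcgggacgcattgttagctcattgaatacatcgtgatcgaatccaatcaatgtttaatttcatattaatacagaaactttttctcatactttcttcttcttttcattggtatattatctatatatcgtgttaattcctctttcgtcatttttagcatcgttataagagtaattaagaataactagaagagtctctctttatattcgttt
ARG3: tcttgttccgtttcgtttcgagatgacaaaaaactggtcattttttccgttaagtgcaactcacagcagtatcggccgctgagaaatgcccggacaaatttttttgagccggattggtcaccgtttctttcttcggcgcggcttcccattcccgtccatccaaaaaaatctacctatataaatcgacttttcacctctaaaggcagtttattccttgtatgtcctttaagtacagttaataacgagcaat

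TGACTC was found in the windows of 32 of the 47 genes (68.1%), against 410 of the 6001 windows of all coding genes (6.83%). The share differed by pathway: 8 of 9 arginine genes, 4 of 4 histidine genes, 7 of 10 branched-chain genes, 4 of 5 threonine genes, 4 of 8 aromatic genes, 2 of 3 serine genes and 2 of 6 lysine genes held it, as did ASN1. The GCN4 window did not, but the GCN4 mRNA has a long leader, so this window is not a reading of its promoter. A motif of the Leu3 type, CCGG and again CCGG after a gap of 2 bases, was found in 2 of the windows, those of LEU1 and BAT1, against 8 of all 6001 (0.133%). A motif of the Lys14 type, TCCNNNGGA, was found in 4, those of LYS1, LYS9, LYS12 and THR4, against 164 of all 6001 (2.73%). These motifs read the same on the other strand, and a match is a string of letters in a window, with no binding measured.

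Levels are in RPKM, the reads of a gene divided by its length in kilobases and by the library size, as the authors normalized them. The recovered totals were 30776867 to 34575167 reads per library, and the 47 genes had 1357 to 76532 reads each in a library, so counting error was small beside the spread between libraries. PSH1 stood at 0.0494 and 0.0243 RPKM in the psh1 cac2 libraries and 0.0 and 0.0457 in the psh1 libraries, against 25.0 and 26.0 in cac2 and 28.1 and 26.9 in WT. CAC2 stood at 0.15 and 0.0844 RPKM in psh1 cac2 and 0.0233 and 0.0438 in cac2, against 19.3 and 22.9 in psh1 and 19.0 and 19.5 in WT, so the libraries matched their labels. The induced CSE4 transcript stood at 23546 and 22798 RPKM in psh1 cac2, 10127 and 9616 in psh1, 17956 and 19968 in cac2 and 16624 and 14586 in WT, so the induced gene itself was lowest in psh1. The marker HIS3, which is also a histidine synthesis gene, stood at 6689 and 6898 RPKM in psh1 cac2, 2822 and 2825 in psh1, 11704 and 8773 in cac2 and 5917 and 4474 in WT. The library size that the authors divided by was 0.970 and 0.975 times the recovered total in psh1 cac2, 1.06 and 1.07 times in psh1, 0.932 and 0.944 times in cac2, and 1.02 and 1.04 times in WT. The part of these quantities in the results was not tested, except that the scaling was replaced by the total as given with the counts. Differences were tested with limma on log2(RPKM + 1) over all tested features, with an adjusted p under 0.05 taken as a call. Fold changes are given on that log2 scale with their standard errors (SE).

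In WT all 47 genes were expressed above the median of the tested features, at percentiles from 64.0 to 99.1. The median of their WT means was 314 RPKM, against 33.4 RPKM over all tested features. ARG1, the argininosuccinate synthetase gene, had the highest WT mean at 1205 RPKM, and ORT1, which encodes the mitochondrial ornithine carrier, had the lowest at 47.9 RPKM. The differences between genotypes were small beside these levels. The highest of a gene's 8 libraries was 1.15 to 2.10 times its lowest, and ARG3 and ILV3, at 2.10 and 2.01 times, varied most.

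**Figure D1:**
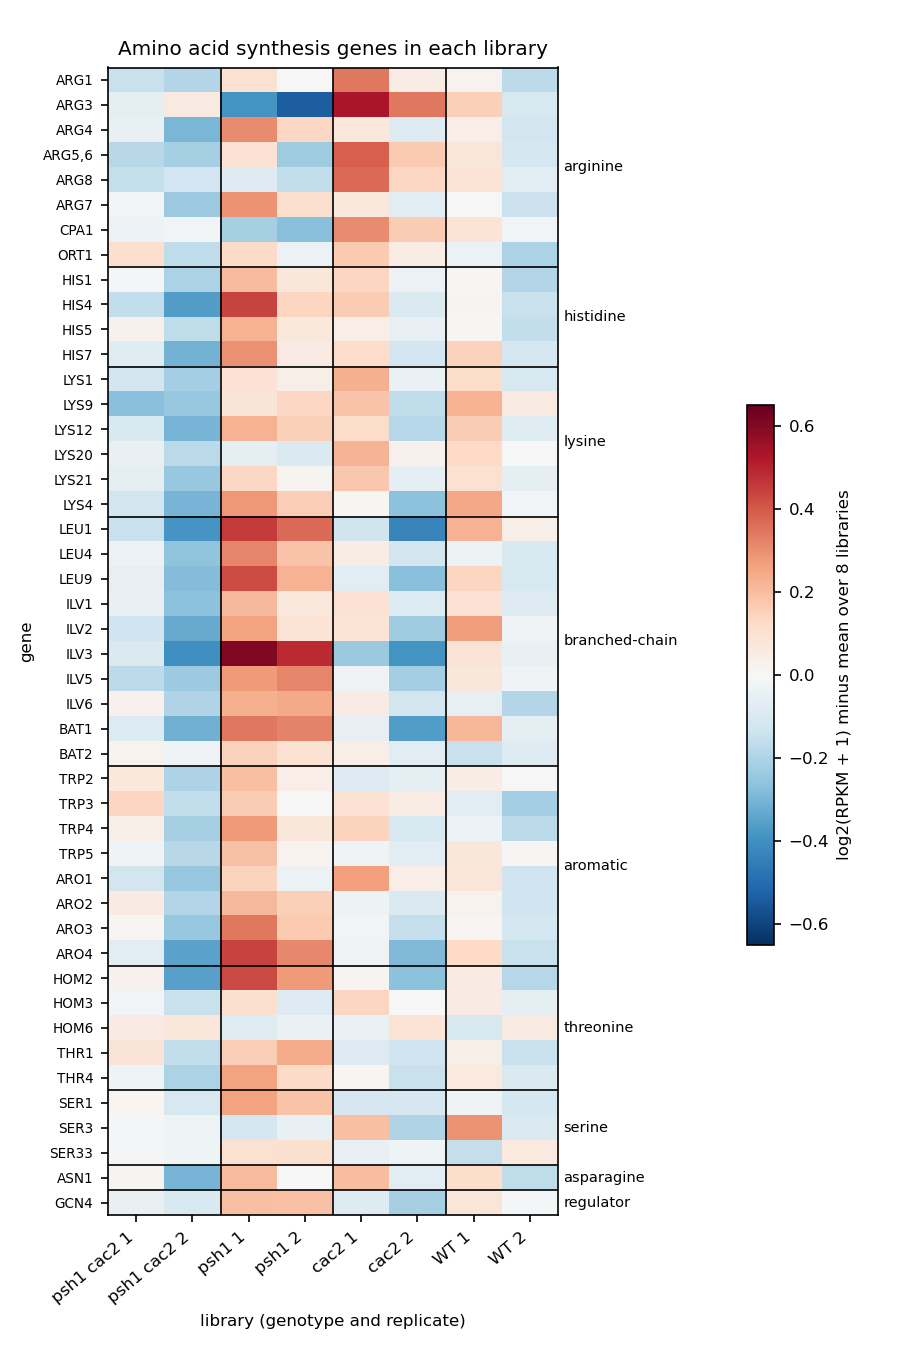
Level of 46 of the 47 genes in each of the 8 libraries, as log2(RPKM + 1) minus the gene's own mean over the 8 libraries, with genes in rows by pathway and libraries in columns by genotype. Most rows are red in both psh1 libraries, the branched-chain genes most of all, while ARG3 and CPA1 are blue there and red in the cac2 libraries.

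In psh1 against WT, 4 of the 47 genes were called higher (ILV3, ILV6 and BAT2 of the branched-chain pathway and SER1 of serine synthesis) and 2 lower (ARG3 and CPA1 of the arginine pathway). This is 12.8% of the genes, against 14.5% of all tested features. By direction, 39 of the 47 genes were above 0, with a median of 0.16 on the log2 scale against -0.00 over all tested features. The higher calls were 8.51% of the genes (7.65% of all features) and the lower calls 4.26% (6.90% of all features). In 25 of the 47 genes (53.2%) both psh1 libraries lay above both WT libraries, against 30.0% of all features, and in 4 (8.51%) both lay below, against 27.9%.

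Leaving out any 1 library cut these calls and also the calls among all tested features, most of all without a psh1 or WT library. Which calls were lost is given with each gene below. Scaling by total reads in place of the authors' library sizes gave 7 higher and 1 lower, which is 14.9% and 2.13% of the genes against 13.1% and 5.20% of all features under that scaling. The members' median lay between 0.12 (WT replicate 2 left out) and 0.27 (WT replicate 1 left out).

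The comparison of psh1 cac2 with psh1 gave the most calls. Here 14 of the 47 genes (29.8%) were called lower and 1, ARG3, was called higher (2.13%), against 12.2% lower and 11.2% higher among all tested features. Together this is 31.9% of the genes against 23.5% of all features. Of the 47 genes, 43 were below 0, and their median was -0.25 against -0.02 over all features. In 34 genes (72.3%) both psh1 cac2 libraries lay below both psh1 libraries, against 35.7% of all features, and in 4 (8.51%) both lay above, against 30.5%. The 14 lower genes were ILV3, ILV5, LEU1, LEU9, BAT1 and LEU4 of the branched-chain pathway, ARO4 and ARO3 of the aromatic pathway, HIS4, SER1, ARG4, LYS4, HOM2 and GCN4 itself.

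The psh1 libraries and psh1 cac2 replicate 2 weighed most on this count. Leaving out any of these also cut the calls among all tested features most. In these fits the share of the genes called, in either direction together, was no longer above that of all features. Each such fit leaves 1 library in a genotype. Which calls were lost is given with each gene below. With scaling by total reads the count of called genes was 36 (76.6%), of which 35 were lower (74.5%) and 1 higher (2.13%). Among all features 34.5% were called lower and 6.68% higher under that scaling, which shifted their median by -0.13. The members' median lay between -0.36 (psh1 cac2 replicate 1 left out) and -0.18 (psh1 cac2 replicate 2 left out).

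Neither cac2 against WT nor psh1 cac2 against WT gave a call among the 47 genes by limma, against 4.26% of all tested features in cac2 (2.75% higher and 1.51% lower) and 6.05% in psh1 cac2 (3.86% higher and 2.18% lower). At an unadjusted p under 0.05, limma gave 8 genes (17.0%) in cac2 against WT and 6 (12.8%) in psh1 cac2 against WT, against 22.5% and 24.8% of all features. In cac2 25 genes were above WT and 22 below, with a median of 0.03, but 10 were above and 37 below with scaling by total reads, and the median lay between -0.05 (WT replicate 2 or cac2 replicate 1 left out) and 0.10 (cac2 replicate 2 left out). Of the psh1 cac2 genes 10 were above WT and 37 below, with a median of -0.10 against -0.01 over all features. That median was -0.20 and -0.06 when psh1 cac2 replicate 1 or replicate 2 was left out, and -0.05 and -0.22 when WT replicate 1 or replicate 2 was. In psh1 cac2 17 of the 47 (36.2%) lay below WT with no overlap of the libraries, against 27.4% of all features, and 1 (2.13%) lay above, against 27.7%. In cac2 8 (17.0%) lay above WT without overlap, against 25.5% of all features, and 5 (10.6%) lay below, against 26.5%. Scaling by total reads called 4 genes lower in cac2 (GCN4, ILV3, ILV5 and LEU1) and 3 lower in psh1 cac2 (ILV5, LEU1 and LYS9). These are 8.51% and 6.38% of the genes, against 18.7% and 7.51% of all features called lower under that scaling, and it shifted the median of all features by -0.13 in cac2 and by -0.08 in psh1 cac2. LYS9 (-0.40 in psh1 cac2 against WT, limma adjusted p = 0.0856 with all 8 libraries) crossed the threshold when either cac2 library was left out. Such a fit leaves 1 cac2 library.

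In psh1 cac2 against cac2 the limma count of called genes was also 0, against 0.895% of all features (0.393% higher and 0.503% lower), with 9 genes (19.1%) at an unadjusted p under 0.05 against 23.8% of all features. There 36 of the 47 were below 0, with a median of -0.11. The median was -0.23 and 0.00 when psh1 cac2 replicate 1 or replicate 2 was left out, and -0.03 and -0.20 when cac2 replicate 1 or replicate 2 was. Of the 47, 12 (25.5%) lay below without overlap, against 29.0% of all features, while 2 (4.26%) lay above, against 27.9%. The comparisons share WT, psh1 or psh1 cac2 libraries and are not independent of each other.

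**Figure D2:**
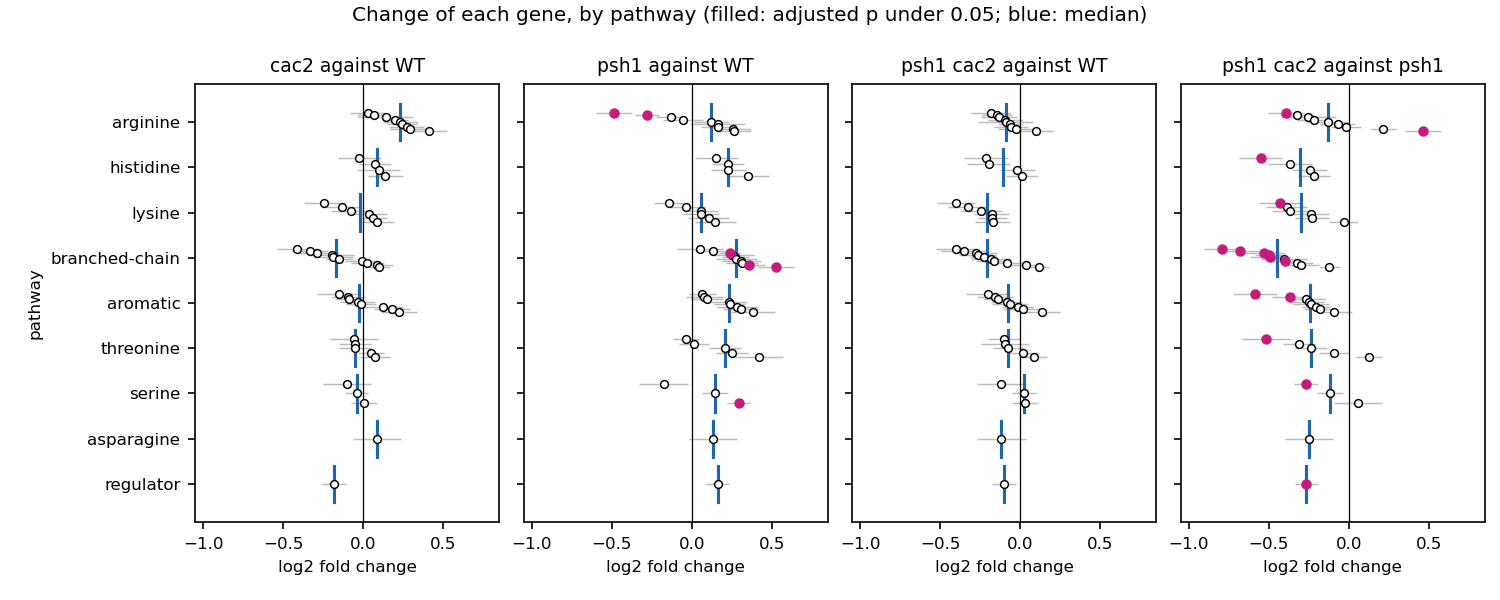
Log2 fold change of each gene in 4 comparisons (horizontal axes, on the log2(RPKM + 1) scale), grouped by pathway, with bars for the standard error, filled points for an adjusted p under 0.05 and a blue line for the pathway median. Branched-chain genes lie right of 0 in psh1 against WT (median 0.28) and left of 0 in psh1 cac2 against psh1 (median -0.45), and arginine genes lie right of 0 in cac2 against WT (median 0.23).

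GCN4 (YEL009C, chrV:138918-139763, minus strand) had 1049 and 1012 RPKM in the psh1 cac2 libraries, 1242 and 1235 in psh1, 1022 and 932 in cac2 and 1142 and 1073 in WT. Both psh1 libraries were the highest of the 8, and the psh1 cac2 and cac2 libraries all lay below WT. The transcript fell in psh1 cac2 against psh1 (-0.27, SE 0.0737, limma adjusted p = 0.0373), where the groups did not overlap, and the call was lost whichever of these 4 libraries was left out. Against WT it did not pass the test in psh1 (0.16, SE 0.0737, limma adjusted p = 0.176), in psh1 cac2 (-0.10, SE 0.0737, limma adjusted p = 0.415) or in cac2 (-0.18, SE 0.0737, limma adjusted p = 0.202).

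The branched-chain pathway held the most calls and the highest median in psh1 against WT. All 10 of its genes were above WT in psh1 (median 0.28). Of the 10, 3 were called, against 7.65% of all features called higher. Both psh1 libraries lay above both WT libraries in 8 of the 10, against 30.0% of all features. All 10 were lower in psh1 cac2 than in psh1 with no overlap of the libraries, against 35.7% of all features (median -0.45). There 6 were called, against 12.2% of all features called lower. In cac2 7 of the 10 were below WT and 3 above (median -0.17), or 10 and 0 with scaling by total reads. Levels in psh1 cac2 and cac2 lay close together (median difference -0.02, or 0.03 with scaling by total reads). Of the 10 genes 0 were free of overlap in either direction, against 27.9% of all features higher and 29.0% lower. Summed over the pathway, the psh1 libraries held 5842 and 5592 RPKM, against 4989 and 4458 in WT.

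ILV3 (YJR016C, chrX:464451-466208, minus strand) encodes dihydroxyacid dehydratase, a step shared by isoleucine and valine synthesis. It had 406 and 328 RPKM in the psh1 cac2 libraries, 659 and 607 in psh1, 366 and 331 in cac2 and 460.3 and 419 in WT. The psh1 libraries stood apart above all others, and the psh1 cac2 and cac2 libraries all lay below WT. ILV3 rose in psh1 against WT (0.53, SE 0.114, limma adjusted p = 0.023) and fell in psh1 cac2 against psh1 (-0.79, SE 0.114, limma adjusted p = 0.00323), the largest changes among the 47 genes in both comparisons. The call in psh1 cac2 against psh1 kept its side of the threshold in all 16 alternatives run, and the call in psh1 against WT was lost when either psh1 library or either WT library was left out.

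ILV6 (YCL009C, chrIII:104619-105548, minus strand) encodes the regulatory subunit of acetolactate synthase, the first shared enzyme of the pathway. Its level was 422 and 362 RPKM in psh1 cac2, 486 and 492 in psh1, 429.5 and 382 in cac2 and 399 and 364 in WT. The psh1 libraries were again above all others, while psh1 cac2, cac2 and WT overlapped. It rose in psh1 against WT (0.36, SE 0.0988, limma adjusted p = 0.0482), and its difference in psh1 cac2 against psh1 lay just outside the threshold (-0.32, SE 0.0988, limma adjusted p = 0.0506). The call against WT was lost when any psh1, cac2 or WT library was left out.

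ILV5 (YLR355C, chrXII:838066-839253, minus strand), which encodes the reductoisomerase that follows acetolactate synthase, was the most abundant gene of the pathway. It had 987 and 943 RPKM in psh1 cac2, 1345 and 1385 in psh1, 1094 and 951 in cac2 and 1168 and 1093 in WT. The psh1 libraries were the highest and those of psh1 cac2 lay below WT. It fell in psh1 cac2 against psh1 (-0.50, SE 0.0846, limma adjusted p = 0.00646, lost without psh1 cac2 replicate 2) and did not pass the test in psh1 against WT (0.27, SE 0.0846, limma adjusted p = 0.0674).

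In the leucine branch, LEU1 (YGL009C, chrVII:476313-478652, minus strand), the isopropylmalate isomerase gene, had 614 and 521 RPKM in psh1 cac2, 934 and 878 in psh1, 622 and 505 in cac2 and 796 and 699 in WT. The psh1 libraries lay above WT, and the psh1 cac2 and cac2 libraries lay below WT and overlapped each other. LEU1 fell in psh1 cac2 against psh1 (-0.68, SE 0.126, limma adjusted p = 0.00897), a call lost without psh1 cac2 replicate 2 or psh1 replicate 1. Its differences from WT did not pass the test in psh1 cac2 (-0.40, SE 0.126, limma adjusted p = 0.107), psh1 (0.28, SE 0.126, limma adjusted p = 0.171) or cac2 (-0.41, SE 0.126, limma adjusted p = 0.116), although the cac2 value was the lowest among the 47 genes in that comparison.

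LEU4 and LEU9 both encode isopropylmalate synthase, which opens the leucine branch. LEU4 (YNL104C, chrXIV:424895-426754, minus strand) had 604 and 516 RPKM in psh1 cac2, 771 and 703 in psh1, 640.0 and 569.7 in cac2 and 606 and 579 in WT. LEU9 (YOR108W, chrXV:523027-524841, plus strand) had 61.5 and 52.2 RPKM in psh1 cac2, 85.8 and 74.8 in psh1, 60.6 and 52.6 in cac2 and 70.2 and 59.2 in WT. Both genes were highest in the psh1 libraries without overlap with any other genotype. Both fell in psh1 cac2 against psh1, LEU4 by a log2 fold change of -0.40 (SE 0.101, limma adjusted p = 0.0285) and LEU9 by -0.49 (SE 0.123, limma adjusted p = 0.0268). Both calls were lost when psh1 cac2 replicate 2 or either psh1 library was left out.

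BAT1 and BAT2 encode the mitochondrial and the cytosolic branched-chain aminotransferase. BAT1 (YHR208W, chrVIII:517532-518713, plus strand) had 433 and 371 RPKM in psh1 cac2, 585 and 577 in psh1, 445 and 358 in cac2 and 536 and 443 in WT. BAT2 (YJR148W, chrX:705744-706874, plus strand) had 57.7 and 55.9 RPKM in psh1 cac2, 63.0 and 60.8 in psh1, 58.6 and 54.0 in cac2 and 51.3 and 53.5 in WT. BAT1 was lower in both psh1 cac2 libraries than in WT and overlapped WT in cac2, whereas BAT2 was higher in all 6 mutant libraries than in both WT libraries. BAT1 fell in psh1 cac2 against psh1 (-0.53, SE 0.134, limma adjusted p = 0.0275), and BAT2 rose in psh1 against WT (0.24, SE 0.0645, limma adjusted p = 0.047). The BAT1 call was lost when psh1 cac2 replicate 2 or either psh1 library was left out, and the BAT2 call was lost whichever of the 8 libraries was left out. The ratio of BAT1 to BAT2 was 7.51 and 6.64 in psh1 cac2, 9.28 and 9.48 in psh1 and 7.59 and 6.63 in cac2, against 10.4 and 8.28 in WT.

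In cac2 all 9 arginine genes were above WT (median 0.23), or 7 of 9 with scaling by total reads (median 0.10). Of the 9, 6 lay above WT without overlap, against 25.5% of all features. None was called by limma, against 4.26%, and 5 had an unadjusted p under 0.05, against 22.5%. In psh1 cac2 against cac2 all 9 were below 0 (median -0.27), 5 without overlap (55.6%, against 29.0% of all features). In psh1 the pathway split, with a median of 0.12 and with ARG3 and CPA1 called lower (22.2%, against 6.90% of all features).

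ARG3 (YJL088W, chrX:268799-269815, plus strand) encodes ornithine carbamoyltransferase, which makes citrulline. It had 295 and 320.3 RPKM in psh1 cac2, 235 and 212 in psh1, 445 and 389.9 in cac2 and 342 and 285 in WT. Unlike for ILV3, the psh1 libraries were the lowest and the cac2 libraries the highest, and psh1 cac2 overlapped WT. ARG3 fell in psh1 against WT (-0.48, SE 0.112, limma adjusted p = 0.0279) and rose in psh1 cac2 against psh1 (0.46, SE 0.112, limma adjusted p = 0.025). The call against WT was lost when either psh1 library or WT replicate 1 was left out, and the call against psh1 when any psh1 cac2 or psh1 library was. Its higher value in cac2 against WT did not pass the test (0.41, SE 0.112, limma adjusted p = 0.0912).

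CPA1 (YOR303W, chrXV:882899-884134, plus strand) encodes the small subunit of the carbamoyl phosphate synthetase that supplies ARG3's enzyme, and an arginine-sensing peptide in its leader lowers its translation. It had 590.0 and 598 RPKM in psh1 cac2, 521 and 502 in psh1, 749 and 680.4 in cac2 and 644 and 598 in WT. As for ARG3, the psh1 libraries were the lowest and the cac2 libraries the highest. CPA1 fell in psh1 against WT (-0.28, SE 0.0765, limma adjusted p = 0.0482), and the difference in psh1 cac2 against psh1 did not pass the test (0.22, SE 0.0765, limma adjusted p = 0.0773). The call was lost whichever of the 8 libraries was left out.

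The other arginine genes were not called in psh1 against WT, where 14.5% of all features were. Their log2 fold changes there ran from -0.13 (ARG8) to 0.27 (ARG7). ARG1 (YOL058W, chrXV:219211-220473, plus strand) had 1145 and 1109 RPKM in psh1 cac2, 1356 and 1262 in psh1, 1606 and 1312 in cac2 and 1285 and 1124 in WT, with the 2 cac2 libraries above both WT libraries (0.27, SE 0.11, limma adjusted p = 0.203). ORT1 (YOR130C, chrXV:569929-570807, minus strand) had 56.4 and 46.4 RPKM in psh1 cac2, 56.9 and 50.8 in psh1, 58.8 and 53.9 in cac2 and 50.8 and 45.0 in WT. It did not pass the test against WT in any mutant. ARG4, which encodes argininosuccinate lyase, the last step, had 569 and 478 RPKM in psh1 cac2 and 727 and 645 in psh1 and fell in psh1 cac2 against psh1 (-0.39, SE 0.114, limma adjusted p = 0.0427), a call lost when psh1 cac2 replicate 2 or any psh1 or cac2 library was left out. ARG5,6 and ARG8, of the acetylated part of the pathway, had log2 fold changes of 0.29 and 0.24 in cac2 against WT, with limma adjusted p of 0.218 and 0.188, and ARG5,6 was the most negative of the 47 genes in psh1 cac2 against cac2 (-0.48, SE 0.126, limma adjusted p = 0.0983).

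**Figure D3:**
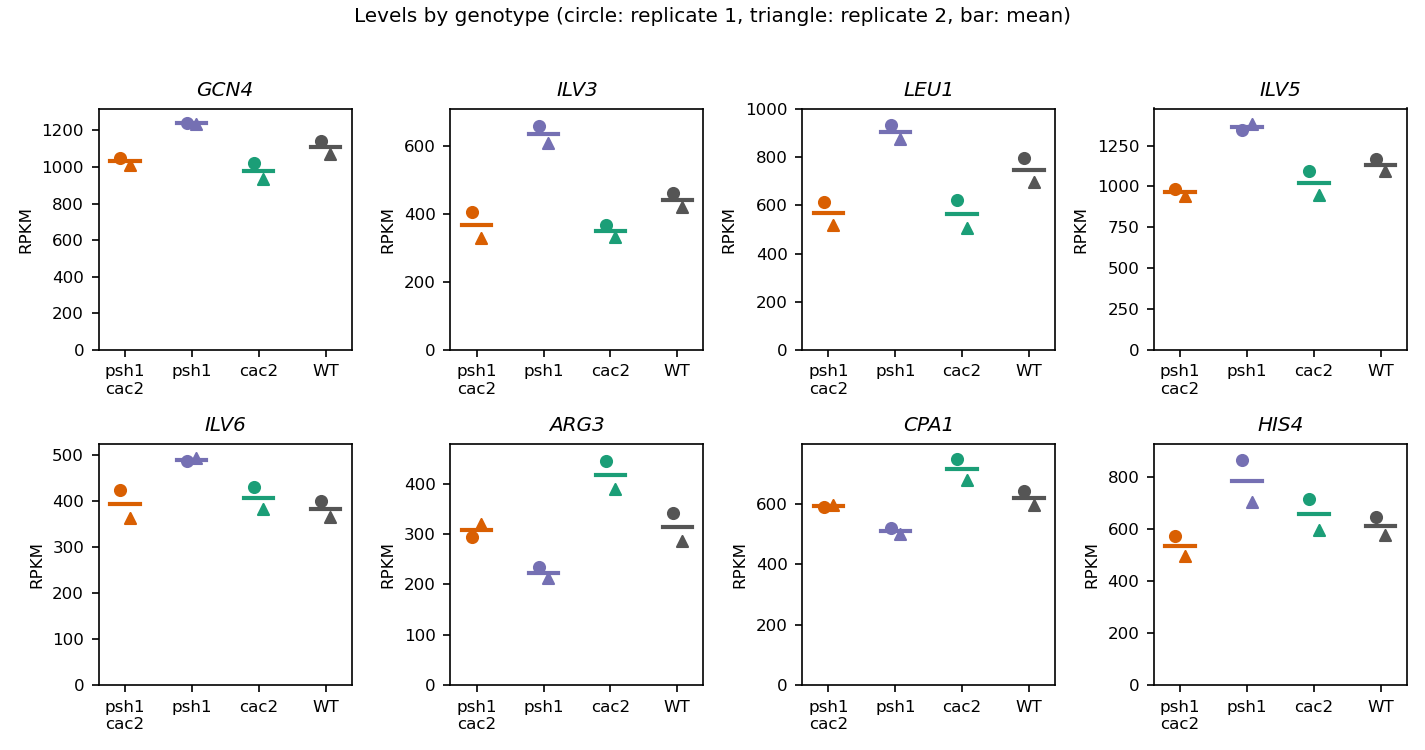
RPKM of GCN4, 5 synthesis genes and 2 arginine genes of the opposite order in each library, by genotype, with circles for replicate 1, triangles for replicate 2 and a bar for the mean. ILV3, LEU1, ILV5 and ILV6 are highest in psh1, while ARG3 and CPA1 are lowest in psh1 and highest in cac2.

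All 8 aromatic genes were above WT in psh1 (median 0.23). None was called there by limma, against 7.65% of all features called higher, and 3 had an unadjusted p under 0.05, against 31.9%. All 8 were below psh1 in psh1 cac2 (median -0.24), and 2 were called (25.0%, against 12.2% of all features called lower). ARO3 and ARO4 encode the feedback-regulated synthases that open the shared aromatic pathway. ARO4 (YBR249C, chrII:716882-717994, minus strand) had 370.0 and 306 RPKM in psh1 cac2, 529 and 484 in psh1, 383 and 319 in cac2 and 427 and 353 in WT. ARO3 (YDR035W, chrIV:521816-522928, plus strand) had 397 and 332 RPKM in psh1 cac2, 498 and 442 in psh1, 389 and 353 in cac2 and 397 and 363 in WT. For both genes the psh1 libraries were above all other libraries, which overlapped one another. ARO4 fell in psh1 cac2 against psh1 (-0.59, SE 0.137, limma adjusted p = 0.0213), and so did ARO3 (-0.37, SE 0.11, limma adjusted p = 0.0453). Both calls were lost when psh1 cac2 replicate 2 or either psh1 library was left out, and that of ARO3 also when either cac2 library was. TRP4, the anthranilate phosphoribosyltransferase gene, was the least abundant of the pathway with 109 and 91.3 RPKM in psh1 cac2, 129 and 112 in psh1, 118 and 98.9 in cac2 and 104 and 94.1 in WT.

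The 4 histidine genes were all above WT in psh1 (median 0.23). None was called there by limma, against 7.65% of all features called higher, and 1 had an unadjusted p under 0.05, against 31.9%. All 4 were below psh1 in psh1 cac2 without overlap, against 35.7% of all features (median -0.31). Of the 4, 1 was called (25.0%, against 12.2% of all features called lower). HIS4 (YCL030C, chrIII:65934-68333, minus strand) encodes an enzyme of several steps of the pathway and is a textbook target of Gcn4, and its window above holds 3 matches to TGACTC. It had 570.2 and 496 RPKM in psh1 cac2, 863 and 702 in psh1, 715 and 597 in cac2 and 646 and 576 in WT. The psh1 cac2 libraries were the lowest, below WT without overlap, and replicate 2 of psh1 lay within the range of cac2. HIS4 fell in psh1 cac2 against psh1 (-0.55, SE 0.134, limma adjusted p = 0.0252, lost without psh1 cac2 replicate 2 or psh1 replicate 1), and its higher value in psh1 against WT did not pass the test (0.35, SE 0.134, limma adjusted p = 0.117). HIS7, which encodes imidazole glycerol phosphate synthase, was the least abundant of the 4, with 163 and 139 RPKM in psh1 cac2, 211 and 178 in psh1, 186 and 158 in cac2 and 191 and 159 in WT.

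Lysine genes had a median of 0.06 in psh1 against WT and were below WT in psh1 cac2, where all 6 lay under both WT libraries (log2 fold changes from -0.40 to -0.17, median -0.21). None of these 6 was called by limma, against 6.05% of all features, and 2 had an unadjusted p under 0.05, against 24.8%. In that comparison 27.4% of all features lay below WT without overlap. LYS9, a saccharopine dehydrogenase gene near the end of the pathway, had 195 and 198 RPKM in psh1 cac2, 249 and 258 in psh1, 268 and 210.0 in cac2 and 276 and 245 in WT, with the most negative change of the 47 genes in psh1 cac2 against WT (-0.40, SE 0.116, limma adjusted p = 0.0856). LYS4 (YDR234W, chrIV:931129-933210, plus strand), the homoaconitase gene, had 128 and 113 RPKM in psh1 cac2, 170.1 and 156 in psh1, 141 and 116 in cac2 and 166 and 138 in WT, and was the lysine gene that fell in psh1 cac2 against psh1 (-0.43, SE 0.126, limma adjusted p = 0.0427), a call lost when any psh1 cac2 or psh1 library was left out.

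LYS20 and LYS21 encode homocitrate synthase, the entry to lysine synthesis. LYS20 (YDL182W, chrIV:133437-134723, plus strand) had 351 and 321 RPKM in psh1 cac2, 348 and 339 in psh1, 423 and 369 in cac2 and 396 and 362 in WT. LYS21 (YDL131W, chrIV:227393-228715, plus strand) had 291 and 256 RPKM in psh1 cac2, 334 and 308 in psh1, 343 and 292 in cac2 and 326 and 292 in WT. LYS20 was below WT in both psh1 libraries and LYS21 overlapped WT there. Neither passed the test in psh1 against WT (limma adjusted p = 0.325 for LYS20 and 0.748 for LYS21).

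In the threonine pathway, HOM2 (YDR158W, chrIV:770357-771454, plus strand), which encodes aspartate semialdehyde dehydrogenase, had 399 and 307 RPKM in psh1 cac2, 528 and 476 in psh1, 397 and 326 in cac2 and 407 and 344 in WT. The psh1 libraries were above all others, which overlapped one another. HOM2 fell in psh1 cac2 against psh1 (-0.52, SE 0.152, limma adjusted p = 0.0439, lost when psh1 cac2 replicate 2 or either psh1 library was left out) and was not called in psh1 against WT (0.42, SE 0.152, limma adjusted p = 0.102). HOM6, the homoserine dehydrogenase gene, was the steadiest of the 47 genes, at 1.15 times between its highest and lowest library. THR1, which encodes homoserine kinase, had 149 and 126 RPKM in psh1 cac2, 157 and 167 in psh1, 133 and 129 in cac2 and 145 and 127 in WT.

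Serine synthesis starts from a glycolytic intermediate with the phosphoglycerate dehydrogenases of SER3 and SER33, followed by the aminotransferase of SER1. SER1 (YOR184W, chrXV:679357-680544, plus strand) had 255 and 236 RPKM in psh1 cac2, 304 and 288 in psh1, 234 and 235 in cac2 and 249 and 234 in WT. The psh1 libraries were above all others, and those of psh1 cac2, cac2 and WT lay within a narrow range. SER1 rose in psh1 against WT (0.29, SE 0.0731, limma adjusted p = 0.0362) and fell in psh1 cac2 against psh1 (-0.27, SE 0.0731, limma adjusted p = 0.0351). The call against WT was lost whichever of the 8 libraries was left out, and the call against psh1 was kept when a WT library was left out but lost when any other was.

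SER3 is known to be repressed by transcription of an upstream noncoding RNA. It had 324 and 321 RPKM in psh1 cac2, 304 and 317 in psh1, 375 and 285 in cac2 and 401 and 307 in WT. The cac2 libraries spanned all values of psh1 cac2 and psh1, and WT overlapped them. SER33 had 174 and 171 RPKM in psh1 cac2, 187 and 188 in psh1, 168 and 171 in cac2 and 157 and 182 in WT. ASN1, an asparagine synthetase gene, had 554 and 444 RPKM in psh1 cac2, 632 and 549 in psh1, 629.8 and 519 in cac2 and 593 and 488 in WT. Neither SER33 nor ASN1 passed the test in any comparison.

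Set side by side, the pathway medians gave different orders of the genotypes. In psh1 against WT they ran from 0.28 (branched-chain), 0.23 (histidine and aromatic), 0.21 (threonine) and 0.15 (serine) to 0.12 (arginine) and 0.06 (lysine). In cac2 against WT arginine stood at 0.23 and branched-chain at -0.17, with histidine at 0.08 (-0.05 with scaling by total reads) and lysine, aromatic, threonine and serine between -0.05 and -0.02 (between -0.18 and -0.15 with scaling by total reads). In psh1 cac2 against WT serine stood at 0.02 (-0.05 with scaling by total reads) and the other pathways were below 0, from -0.08 (threonine and aromatic) to -0.21 (lysine). Read library by library against the WT mean, some medians lay on both sides of 0. In psh1 cac2 these were aromatic (0.06 and -0.21), threonine (0.08 and -0.14) and serine (0.04 and -0.03). In psh1 it was arginine (0.17 and -0.06), and in cac2 they were histidine, lysine, aromatic and threonine. The difference between pathways was not tested, because the genes were chosen as a set and are not replicates.

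The interaction, which asks how far psh1 cac2 lay from the added log2 changes of psh1 and of cac2, was called by limma in 0 of the 47 genes and in 1 of the 6366 features (0.0157%). At an unadjusted p under 0.05 limma gave 12 of the 47 (25.5%), against 13.6% of all features. Of the 47 genes 43 were below 0 with a median of -0.29, against -0.01 over all features, and that median lay between -0.40 (cac2 replicate 2 left out) and -0.19 (psh1 cac2 replicate 2 left out). HIS4 had the most negative value (-0.65, SE 0.19, limma adjusted p = 0.237), and ILV3 had -0.46 (limma adjusted p = 0.296).

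Isozyme genes were compared by the ratio of their RPKM within each library. LEU4 over LEU9 was 9.83 and 9.89 in psh1 cac2, 8.99 and 9.40 in psh1, 10.6 and 10.8 in cac2, and 8.63 and 9.79 in WT. LYS20 over LYS21 was 1.21 and 1.25 in psh1 cac2, 1.04 and 1.10 in psh1, 1.23 and 1.26 in cac2, and 1.22 and 1.24 in WT, so the psh1 libraries held the lowest ratios. ARO3 over ARO4 was 1.07 and 1.08 in psh1 cac2, 0.942 and 0.913 in psh1, 1.01 and 1.11 in cac2, and 0.929 and 1.03 in WT. SER3 over SER33 was 1.87 and 1.88 in psh1 cac2, 1.63 and 1.69 in psh1, 2.23 and 1.67 in cac2, and 2.56 and 1.68 in WT, where the spread between replicates was the widest.

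Over the 8 libraries the levels of LEU1, BAT1, ILV3, LEU9 and ILV5 were most like that of GCN4, with Pearson's r of 0.969, 0.964, 0.962, 0.939 and 0.935. At the other end stood ARG3 (-0.797), CPA1 (-0.756), HOM6 (-0.750), ARG8 (-0.426) and ARG5,6 (-0.257). These 8 points are 4 genotypes in duplicate and share their libraries, so r is a description of these libraries. The 5 genes most like GCN4 were all of the branched-chain pathway, and 4 of the 5 least like it were arginine genes. TGACTC was found in 9 of the 14 genes that fell in psh1 cac2 against psh1 (64.3%) and in 23 of the 32 that were not called there (71.9%). The 14 include GCN4, whose window is not a reading of its promoter.

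**Figure D4:**
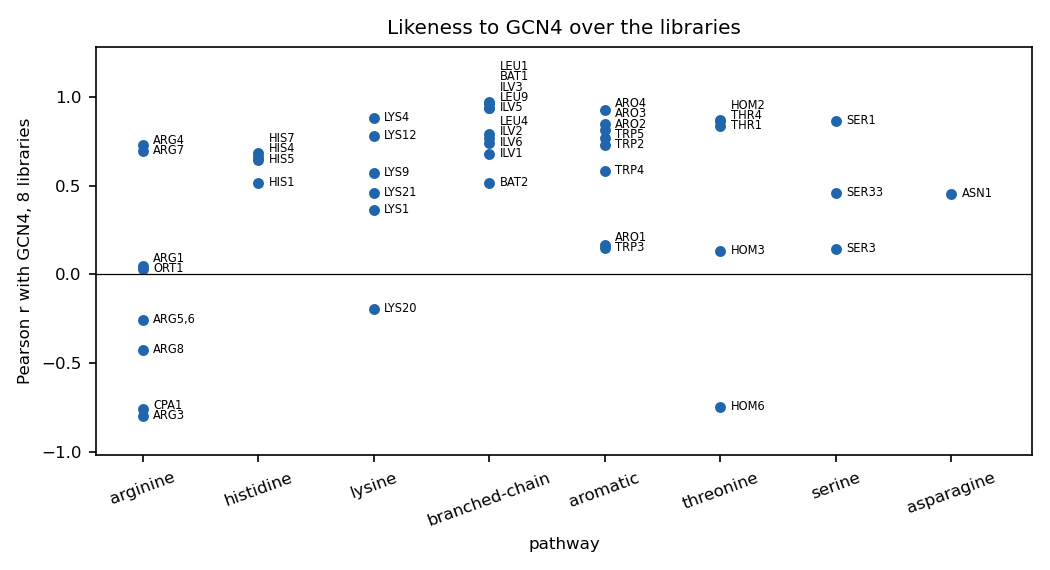
Pearson's r between each gene shown and GCN4 over the 8 libraries on the log2(RPKM + 1) scale (vertical axis), by pathway. The branched-chain genes LEU1, BAT1, ILV3, LEU9 and ILV5 lie highest, from 0.935 to 0.969, and ARG3 and CPA1 lie lowest, at -0.797 and -0.756.

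In every genotype most of the 47 genes were higher in the library numbered 1 than in that numbered 2: 42 genes in psh1 cac2, 40 in psh1, 43 in cac2 and 44 in WT, with median log2 differences of 0.20, 0.13, 0.19 and 0.17. Among all tested features the shares were 55.4%, 50.4%, 56.1% and 50.4%. The labels do not say whether a number marks a shared day or batch, and the part of this spread in the comparisons was not tested here beyond the fit with the replicate number as a term given among the alternatives.

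**Figure D5:**
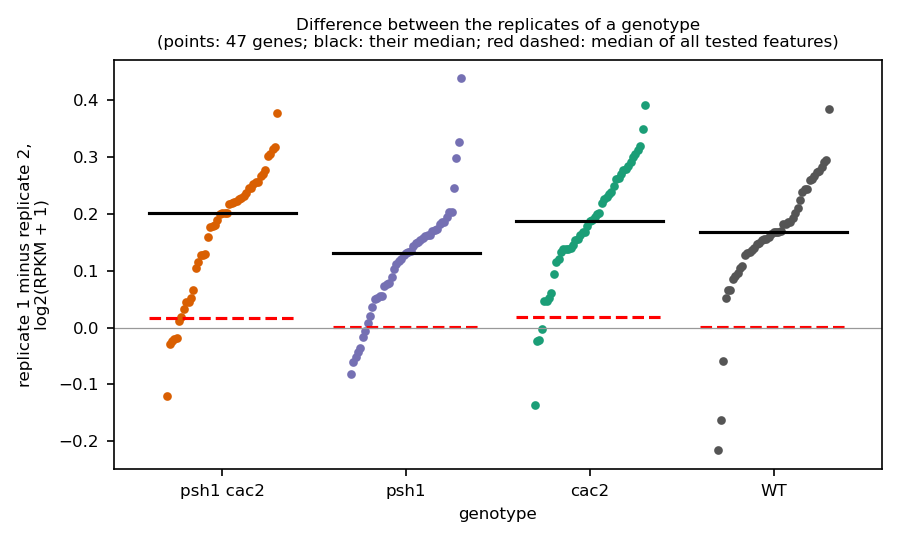
Difference between replicate 1 and replicate 2 of each genotype on the log2(RPKM + 1) scale (vertical axis), with a point for each of the 47 genes, a black line for their median and a red dashed line for the median of all tested features. The gene medians lie between 0.13 and 0.20, and the medians of all features lie between 0.00 and 0.02.

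Genes around the pathways, taken from lists of known function, were read in the same tests. Of all tested features limma called 14.5% in psh1 against WT and 4.26% in cac2 against WT. It called 23.5% in psh1 cac2 against psh1 and 0.895% in psh1 cac2 against cac2. Of 13 genes that control Gcn4 or its translation, GCD6, which encodes a subunit of the nucleotide exchange factor of eIF2, had 101 and 102 RPKM in psh1 cac2, 79.1 and 73.4 in psh1, 73.0 and 67.5 in cac2 and 99.1 and 88.1 in WT. GCD6 fell in psh1 (-0.29, SE 0.08, limma adjusted p = 0.0482) and in cac2 (-0.41, SE 0.08, limma adjusted p = 0.0314), each against WT, and rose in psh1 cac2 against psh1 and against cac2 (log2 fold changes 0.41 and 0.52, limma adjusted p = 0.0113 and 0.0397). With 1 library left out in turn, the call in psh1 against WT and that in cac2 against WT each held in 1 of 8 fits, that in psh1 cac2 against cac2 in 2 and that in psh1 cac2 against psh1 in 5. MBF1, a coactivator of Gcn4, rose in psh1 cac2 against psh1 (0.43, SE 0.094, limma adjusted p = 0.0165, held in 6 of 8 such fits), and no other gene of this list was called in these comparisons.

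Of 11 regulators of single pathways, 1 was called, ARO80, the activator of aromatic amino acid breakdown. That is 9.09% of the list in psh1 against WT, in cac2 against WT and in psh1 cac2 against psh1. Of all features 14.5%, 4.26% and 23.5% were called there. ARO80 had 35.7 and 37.9 RPKM in psh1 cac2, 23.0 and 22.8 in psh1, 40.1 and 41.7 in cac2 and 31.7 and 31.9 in WT, with the psh1 libraries below and the cac2 libraries above all others. It fell in psh1 against WT (-0.46, SE 0.0552, limma adjusted p = 0.0071), rose in cac2 against WT (0.35, SE 0.0552, limma adjusted p = 0.0105) and rose in psh1 cac2 against psh1 (0.66, SE 0.0552, limma adjusted p = 0.000174). The call in cac2 against WT was lost without WT replicate 1 or cac2 replicate 2, and the other calls held whichever library was left out.

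Of 22 further synthesis genes, 3 were called higher in psh1 against WT (the aromatic aminotransferase genes ARO9 and ARO8 and the serine hydroxymethyltransferase gene SHM2, at 0.64, 0.40 and 0.42 on the log2 scale) and none lower, with a median of 0.15, against 7.65% higher and 6.90% lower among all features. With each of the 8 libraries left out in turn, the call of ARO9 held in 8 fits, that of ARO8 in 2 and that of SHM2 in 4. In psh1 cac2 against psh1 9 of the 22 were called lower and 1 higher, with a median of -0.19, against 12.2% lower and 11.2% higher among all features. Of 7 Gcn4 targets outside amino acid synthesis, which serve purine, folate and vitamin B6 metabolism, 3 were called higher in psh1 against WT, where 7.65% of all features were: ADE1, ADE8 and MTD1 (0.40, 0.33 and 0.44). With each of the 8 libraries left out in turn, the calls of ADE1 and ADE8 held in 4 fits each and that of MTD1 in 0. In psh1 cac2 against psh1 4 of the 7 were called lower (12.2% of all features), and the list's median was -0.51.

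Amino acid transport and breakdown genes were also read. Of 13 transport genes none was called by limma in psh1 against WT, and 3 had an unadjusted p under 0.05, against 31.9% of all features. In psh1 cac2 against WT 3 were called lower, namely the permease genes GAP1, AGP1 and CAN1 (-0.77, -0.62 and -0.32), where 2.18% of all features were. With each of the 8 libraries left out in turn, these calls held in 7, 5 and 2 fits. In psh1 cac2 against psh1 4 of the 13 were called lower and 1 higher (12.2% and 11.2% of all features), and the higher one was MUP1, a methionine permease gene named after its value was seen. In cac2 against WT GAP1 was called lower (-0.42, against 1.51% of all features), a call that held in 1 of 8 such fits. Of 6 breakdown genes 3 were called higher in psh1 against WT, ARO10, CAR1 and CHA1 (0.75, 0.61 and 0.58), and PUT1 of proline breakdown was called lower (-0.42), against 7.65% higher and 6.90% lower among all features. With each of the 8 libraries left out in turn, the calls of ARO10 and CHA1 held in 7 fits each and those of CAR1 and PUT1 in 5 each. In psh1 cac2 against psh1 4 of the 6 were called lower and none higher, against 12.2% and 11.2% of all features. CHA1 was also called lower in cac2 against WT (limma adjusted p = 0.00325), where 1.51% of all features were, and the call held whichever library was left out. PUT1 was called lower in psh1 cac2 against WT (limma adjusted p = 0.0211), where 2.18% of all features were, a call lost in some such fits. CAR1 encodes arginase, which the ArgR-Mcm1 complex induces when arginine is plentiful, and stood at 42.9 and 34.3 RPKM in psh1 cac2, 63.6 and 63.4 in psh1, 34.6 and 29.4 in cac2 and 45.1 and 38.0 in WT.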

How the data were processed

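A table of RPKM for 7126 features in 8 libraries was deposited by the authors. Its tools were TopHat2 2.0.13, bcl2fastq 2.18 and edgeR 3.14.0 with the build sacCer3, per the submitters' processing notes. How reads were counted, and with which strand setting and annotation, is not given in the sources used here, so reads of a near-identical copy could be split between genes. Multiplied by feature length, 99.8% of values were whole reads (tolerance 0.01 reads) once divided by the step of their library, which gave the recovered reads. Intervals from such reads would cover counting error only.

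Values were taken as log2(RPKM + 1), with a pseudocount of 1, which understates the change of low genes. A mean of 1 RPKM or more was required, which kept 6366 features and left out 760. The limma models (version 3.58.1 under R 4.3.3, with lmFit, contrasts.fit and eBayes with trend) used all 8 libraries with genotype as the term, leaving 4 residual degrees of freedom, and were tested on simulated data. Tests were two-sided, with Benjamini-Hochberg adjustment over all tested features and a threshold of 0.05. Replicates were cultures grown in duplicate from 1 strain, and p-values measure the spread between them. Between replicates the chi-square per degree of freedom was 26.4 to 44.8, more than sampling noise gives, and each library counted as 1 replicate.

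The 47 genes matched the R64 annotation, each with 1 coding exon and no overlapping annotated gene. Of these, 1 arginine gene counts in the totals and is not reported here by itself. The members and lists were chosen with earlier results of these data known. Values in every library were given for GCN4, for genes called against WT, for up to 8 genes of smallest p called in each other comparison, for isozyme pairs and for the highest and the lowest gene of each pathway; values of CSE4, PSH1, CAC2, HIS3, ARG4, LYS9, GCD6, ARO80 and CAR1 were added after they had been seen. Alternatives were 2 other filters, 2 other pseudocounts, scaling by recovered totals, the groups compared only, Ty reading frames left out, the replicate number as a block, and each library left out in turn.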

Additional observations from a re-analysis of the deposited data

How the results depend on the processing

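None of the results recomputed under the 16 alternatives changed sign while called. The number of the 47 genes called by limma moved as follows. Testing every feature gave 2 (4.26%) in psh1 against WT and 8 (17.0%) in psh1 cac2 against psh1, against 9.94% and 17.5% of all features. Fitting the groups compared only gave 2 (4.26%) and 19 (40.4%) in these 2 comparisons, against 9.14% and 23.1%. Leaving out the Ty reading frames gave 3 (6.38%) in psh1 against WT, against 12%. Scaling by total reads gave 4 (8.51%) in cac2 against WT, against 21.3%. It gave 3 (6.38%) in psh1 cac2 against WT and 36 (76.6%) in psh1 cac2 against psh1, against 10.3% and 41.2%. With 1 library left out the count ran from 0 to 3 in psh1 against WT, from 0 to 1 in psh1 cac2 against WT and from 1 to 15 in psh1 cac2 against psh1, and was 0 in the others. A lone library was then assumed to vary like the other genotypes. Fewer of all features were called too, in every such fit of psh1 against WT and of psh1 cac2 against psh1. The cause was not tested. In 3224 recomputations a gene kept its side of the threshold, or a pathway median moved by less than the median limma SE of its genes. In the rest, 102 called values were no longer called, 50 became called and 44 pathway medians moved by that SE or more.

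The replicate block, with the replicate number as a term, gave 7 calls in cac2 against WT (12.9% of all features were called), 22 in psh1 against WT (46.8% of the genes, 20 of them higher, against 25.5% of all features), 7 in psh1 cac2 against WT (15.5%), 34 in psh1 cac2 against psh1 (72.3% of the genes, against 34.4%), 7 in psh1 cac2 against cac2 (8.17%) and 2 (ARO1 and HIS4) in the interaction (2.04%). The labels do not say that numbers pair the cultures. Over 6366 features, the differences between replicates correlated between genotypes with r from 0.038 to 0.443. Of the 6 pairs of genotypes 2, cac2 with psh1 and with psh1 cac2, were under 0.1. WT with each mutant had r from 0.309 to 0.340, and psh1 with psh1 cac2 had 0.443. Whether the number marks a shared day or batch cannot be told from the labels and was not tested.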
